A study of Hordeum vulgare with 12 samples.

Results

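The enzymes that make ethylene in the barley stem base are followed here through 5 genes, MLOC_5973 for an ACC synthase and MLOC_70078, MLOC_43526, MLOC_50024 and MLOC_67637 for ACC oxidases, out of 26073 gene identifiers counted in the study. They were taken as the ethylene synthesis genes that the study placed on its ethylene pathway because it had called them on the wild-type libraries. The age effect of the wild type is therefore no independent evidence of their direction, while the study's choice did not use the AtCKX1 libraries. The genes were taken up here with earlier results of all 12 libraries known. A written annotation was at hand for MLOC_5973 and MLOC_43526, and the other members are called ACC oxidases only from the study's pathway drawing. RNA of the stem base (crown), the zone from which crown roots emerge, was sequenced in 12 libraries of barley, 3 in each of 4 groups. These were seedlings of an AtCKX1-overexpressing line at 10 days after germination (10DAG) and at 1 day after germination (1DAG), and wild-type cv. Golden Promise (WT) at 10DAG and at 1DAG. AtCKX1, from Arabidopsis, codes for cytokinin dehydrogenase, which degrades cytokinins, and the series' design text states that these plants hold less cytokinin. The sources used here give neither the promoter that drives AtCKX1 nor whether 1 or several transformation events stand behind the AtCKX1 libraries. The methods give a pool of 5 seedlings per sample for the wild type, in 3 independent biological replicates. Both genotypes share the cultivation protocol in the labels, but the methods place seedlings on moist paper at 1DAG and in a hydroponic solution at 10DAG, with a longer segment excised at 10DAG, while the labels give 1 segment length for all. Age, medium and segment length thus cannot be told apart.

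Ethylene is a gaseous plant hormone made from S-adenosyl methionine. ACC synthase turns S-adenosyl methionine into 1-aminocyclopropane-1-carboxylic acid (ACC), usually the step that limits the rate, and ACC oxidase, an iron-dependent oxygenase, turns ACC into ethylene. Both enzymes come from gene families whose members differ in where and when they are transcribed, and in rice ethylene is known to bring about the death of the epidermal cells that cover a growing crown root. In Arabidopsis, cytokinin is known to raise ethylene production by stabilising ACC synthase proteins, a step that transcript levels do not show.

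Each library held 36100002 to 51997655 reads assigned to genes (median 42479783). The transgene row had 7 to 42 reads in the AtCKX1 libraries and 0 in every WT library, so no library went against its genotype label. The median correlation of a library with the others of its group (log2 CPM) was 0.982 to 0.989 in the AtCKX1 groups and 0.950 to 0.978 in the WT groups, with WT 1DAG replicate 1 at the lowest value. Identifiers are paired with functions here only for genes the study called higher at 10DAG, so the tissue label was not checked against markers. All 5 members had enough reads to be tested in every comparison, and their levels are given as CPM, the reads of a gene relative to all reads in genes, scaled by TMM, edgeR's correction for library composition. Gene lengths were not used here, so no level is compared between genes. Fewer cells of a type and less RNA per cell cannot be told apart in such bulk samples.

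All 5 ethylene synthesis genes were higher at 10DAG than at 1DAG in the AtCKX1 stem base. Their log2 fold changes lay between 1.54 and 2.86 with a median of 1.97, against a median of -0.01 over the 20212 genes tested. Calls required at least a 2-fold change either way and an adjusted p (Benjamini-Hochberg, all genes) no higher than 0.05 in edgeR's quasi-likelihood test. By this rule 15.8% of all tested genes were called higher in the same comparison, and 12.2% lower. These shares are over all genes and are no matched reference for members that the study chose by their rise in WT. In the WT, which served to choose the genes, 3 of the 5 were called higher and the estimates of all 5 were positive, between 1.32 and 2.52 with a median of 2.03, or of 1.16 without WT 10DAG replicate 2. There, 14.4% of 19773 tested genes were called higher and 11.7% lower, shares from which nothing is read for these members.

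**Figure D1:**
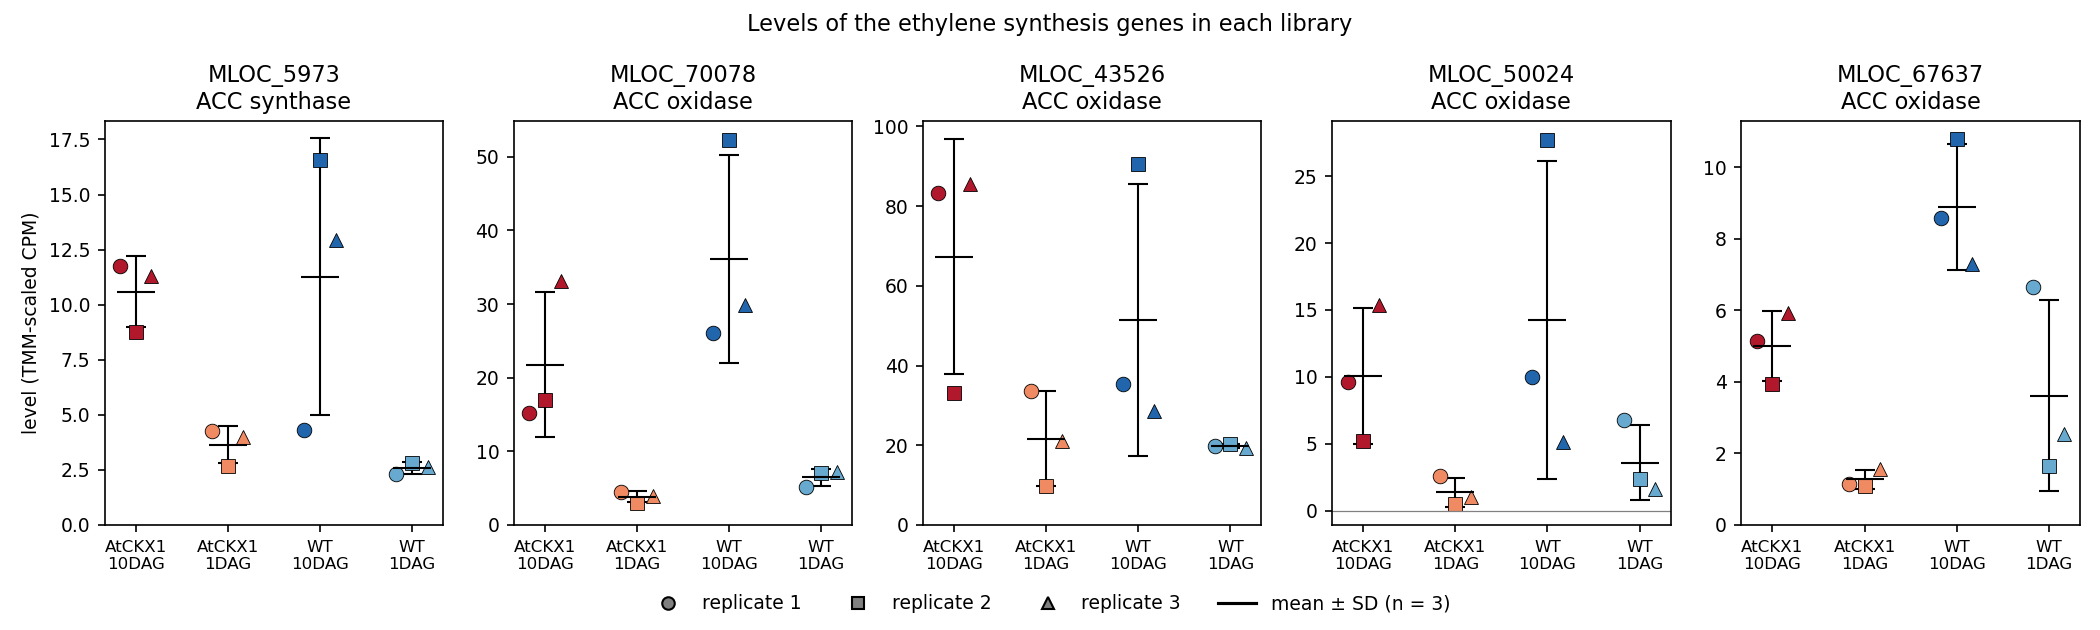
Levels of the 5 genes in TMM-scaled CPM (vertical axis, a separate scale for each gene) in AtCKX1 10DAG, AtCKX1 1DAG, WT 10DAG and WT 1DAG libraries. Symbols mark the replicate number, horizontal bars the group mean and whiskers the SD (n = 3). The 10DAG libraries lie above the 1DAG libraries of the same genotype except for MLOC_43526 in AtCKX1 and MLOC_50024 in WT, where they overlap.

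MLOC_5973, annotated as 1-aminocyclopropane-1-carboxylate synthase, was the only member of the first committed step. In AtCKX1 stem bases it was at 11.7, 8.74 and 11.3 CPM at 10DAG, against 4.25, 2.69 and 4.01 CPM at 1DAG. In WT stem bases it was at 4.31, 16.5 and 12.9 CPM at 10DAG, against 2.30, 2.82 and 2.64 CPM at 1DAG. The ages did not overlap in either genotype, although WT 10DAG replicate 1 stayed close to the AtCKX1 1DAG libraries. MLOC_5973 rose 2.90-fold in AtCKX1, or 1.54 ± 0.39 on the log2 scale (SE, adjusted p = 0.00623). The WT estimate was 2.16 ± 0.48 (SE, adjusted p = 0.0112), or 4.46-fold. By group mean the order was WT 10DAG (11.3 ± 6.29 CPM), AtCKX1 10DAG (10.6 ± 1.62 CPM), AtCKX1 1DAG (3.65 ± 0.837 CPM) and WT 1DAG (2.58 ± 0.267 CPM; SD, n = 3 each). Only the neighbours of different age were separated, since the libraries of the genotypes overlapped at both ages.

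MLOC_70078, drawn by the study as an ACC oxidase gene, had the lowest adjusted p of the members in both genotypes. It was at 15.2, 17.0 and 33.1 CPM in AtCKX1 at 10DAG, against 4.46, 3.00 and 3.98 CPM in AtCKX1 at 1DAG. The WT libraries had 26.1, 52.3 and 29.9 CPM at 10DAG, against 5.12, 7.01 and 7.25 CPM at 1DAG. Every library at 10DAG was above every library at 1DAG, across genotypes too. The rise in AtCKX1 was 5.70-fold, or 2.51 ± 0.35 in log2 units (SE, adjusted p = 0.000136). In the WT it was 2.52 ± 0.31 in the same units (SE, adjusted p = 0.00141). MLOC_70078 was also the 1 member called in both genotypes when the test was set against a 2-fold change (glmTreat). Its order was WT 10DAG (36.1 ± 14.2 CPM), AtCKX1 10DAG (21.8 ± 9.83 CPM), WT 1DAG (6.46 ± 1.17 CPM) and AtCKX1 1DAG (3.81 ± 0.748 CPM; SD, n = 3 each), and only the groups at 10DAG overlapped.

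MLOC_43526, annotated as 1-aminocyclopropane-1-carboxylate oxidase, gave the least stable call. AtCKX1 libraries had 83.3, 33.2 and 85.4 CPM at 10DAG, against 33.7, 9.89 and 21.1 CPM at 1DAG. WT libraries had 35.3, 90.6 and 28.5 CPM at 10DAG, against 19.8, 20.4 and 19.3 CPM at 1DAG. The WT libraries at 1DAG were nearly level, while the other groups each spanned a wide range, and in AtCKX1 the lowest library at 10DAG lay just under the highest at 1DAG. MLOC_43526 was called higher at 10DAG in AtCKX1, by 1.64 ± 0.51 in log2 units (SE, adjusted p = 0.0185). That call was lost on leaving out AtCKX1 1DAG replicate 2 (adjusted p = 0.066) or replicate 3 (adjusted p = 0.0554), or AtCKX1 10DAG replicate 1 (adjusted p = 0.0625) or replicate 3 (adjusted p = 0.0608). The estimates were then 1.29, 1.63, 1.43 and 1.43 in the same order, all still above a 2-fold change. In the WT the estimate of 1.41 ± 0.43 (SE, adjusted p = 0.0334) became 0.72 without WT 10DAG replicate 2, below the 2-fold limit, and the adjusted p rose above 0.05 on leaving out any 1 of the WT 1DAG libraries (0.0617 to 0.0921). By group mean the order was AtCKX1 10DAG (67.3 ± 29.6 CPM), WT 10DAG (51.5 ± 34.1 CPM), AtCKX1 1DAG (21.6 ± 11.9 CPM) and WT 1DAG (19.8 ± 0.559 CPM; SD, n = 3 each), with every neighbouring pair overlapping.

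MLOC_50024, drawn by the study as an ACC oxidase gene, had the largest estimate in AtCKX1 and the widest spread. It was at 9.63, 5.21 and 15.4 CPM in AtCKX1 at 10DAG, against 2.60, 0.539 and 1.02 CPM in AtCKX1 at 1DAG. In WT it was at 9.97, 27.7 and 5.15 CPM at 10DAG, against 6.78, 2.34 and 1.60 CPM at 1DAG. The ages were separate in AtCKX1 but overlapped in WT, where replicate 1 at 1DAG exceeded replicate 3 at 10DAG. In AtCKX1 MLOC_50024 changed by 2.86 ± 0.79 in log2 units (SE, adjusted p = 0.00986), a 7.26-fold rise with a 95% interval of 2.19-fold to 24.1-fold. Without AtCKX1 1DAG replicate 1 the estimate was 3.67 in log2 units. In WT the change was 2.03 ± 0.76 (SE), which was not called by edgeR (adjusted p = 0.0683). The WT estimate was 2.83 without WT 1DAG replicate 1 (adjusted p = 0.02) and 1.10 without WT 10DAG replicate 2. The order of group means was WT 10DAG (14.3 ± 11.9 CPM), AtCKX1 10DAG (10.1 ± 5.09 CPM), WT 1DAG (3.57 ± 2.81 CPM) and AtCKX1 1DAG (1.39 ± 1.08 CPM; SD, n = 3 each), and all neighbouring groups overlapped.

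MLOC_67637, the remaining gene drawn as an ACC oxidase, was at 5.14, 3.95 and 5.92 CPM in AtCKX1 at 10DAG, against 1.16, 1.08 and 1.58 CPM in AtCKX1 at 1DAG. In WT it was at 8.57, 10.8 and 7.29 CPM at 10DAG, against 6.66, 1.65 and 2.54 CPM at 1DAG. The ages did not overlap in either genotype, and WT 1DAG replicate 1 stood far above the other libraries of its group. MLOC_67637 rose 3.93-fold in AtCKX1, or 1.97 ± 0.44 in log2 units (SE, adjusted p = 0.00297). The WT estimate of 1.32 ± 0.51 (SE, adjusted p = 0.0749) was not called by edgeR. Without WT 1DAG replicate 1, the library with the lowest correlation to its group, it was 2.06 and was called (adjusted p = 0.00252). The order was WT 10DAG (8.88 ± 1.77 CPM), AtCKX1 10DAG (5.00 ± 0.990 CPM), WT 1DAG (3.62 ± 2.67 CPM) and AtCKX1 1DAG (1.27 ± 0.269 CPM; SD, n = 3 each), and AtCKX1 10DAG overlapped with WT 1DAG only.

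The calls of MLOC_50024 and MLOC_67637 in the WT turned on the method. DESeq2 called both (adjusted p = 0.00732 and 0.0234), and edgeR called both when all 12 libraries were fitted together (adjusted p = 0.0411 and 0.0222), so that 5 of 5 members were then higher. The study had chosen the members by its own DESeq2 calls on these WT libraries. The shares of all genes called in these fits were not taken, so nothing is read from 5 of 5. In AtCKX1, 5 of 5 were called in every fit of the complete set of libraries except the test against a 2-fold change, which called 1, and 4 of 5 were called on leaving out any of the 4 libraries that ended the call of MLOC_43526. The share of tested genes whose libraries at the 2 ages did not overlap was 70.1% in AtCKX1 and 57.3% in WT, against which 4 of the 5 members did not overlap in each genotype.

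**Figure D2:**
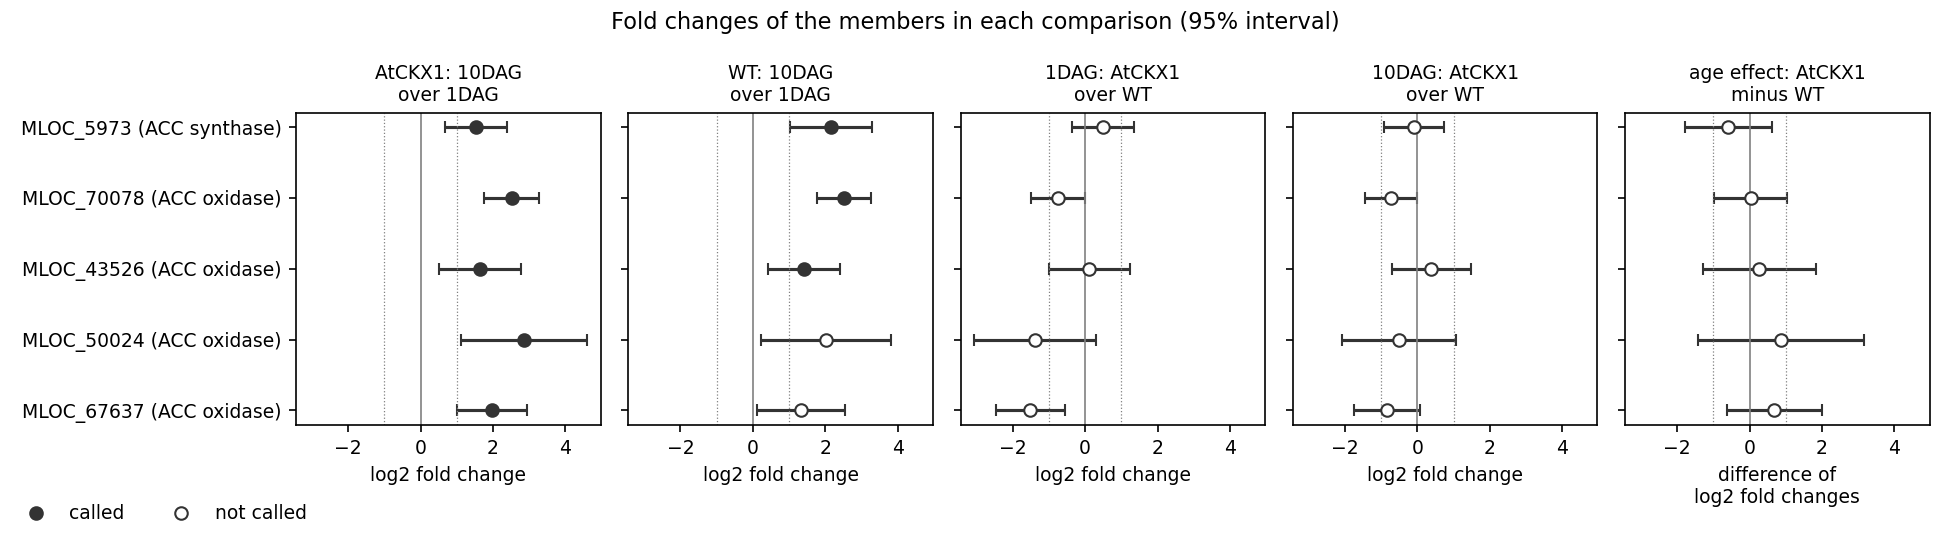
Log2 fold changes of the 5 genes (rows) with 95% intervals (horizontal axis) for, from left to right, AtCKX1 10DAG over 1DAG, WT 10DAG over 1DAG, AtCKX1 over WT at 1DAG, AtCKX1 over WT at 10DAG, and the difference of the age effects. Filled points were called and open points were not, and dotted lines mark a 2-fold change. The 5 members are called in the first panel and 3 in the next, and none in the other panels.

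The next comparison asked whether the ethylene synthesis genes differed between AtCKX1 and WT stem bases of the same age. No member was called at either age by edgeR, where 0.505% of all tested genes were called at 1DAG and 1.24% at 10DAG. At an unadjusted p of at most 0.05, 2 members differed at 1DAG and 1 at 10DAG, where 17.9% and 13.7% of all tested genes did. DESeq2 called 1 member lower in AtCKX1 at 1DAG and 0 at 10DAG. The share of all genes that DESeq2 called was not taken, so nothing is read from these counts. The log2 fold changes had a median of -0.76 over the members at 1DAG and -0.50 at 10DAG, against 0.03 and -0.01 over all genes. With each library left out in turn, the median ranged from -0.90 to -0.53 at 1DAG and from -0.94 to 0.31 at 10DAG, where it was positive only without WT 10DAG replicate 2. The comparisons between genotypes and between ages share libraries, so their values do not check each other.

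MLOC_67637 was the member with the lowest AtCKX1 estimates. At 1DAG its AtCKX1 libraries, 1.16, 1.08 and 1.58 CPM, all lay below the WT libraries, 6.66, 1.65 and 2.54 CPM. At 10DAG the AtCKX1 libraries, 5.14, 3.95 and 5.92 CPM, again lay below the WT libraries, 8.57, 10.8 and 7.29 CPM. Such separation with AtCKX1 lower was found in 11.3% of all tested genes at 1DAG and 12.1% at 10DAG. The log2 fold change at 1DAG was -1.51 (95% interval -2.47 to -0.55, adjusted p = 0.164 by edgeR and 0.0223 by DESeq2), and it was -0.74 without WT 1DAG replicate 1. At 10DAG it was -0.83 (95% interval -1.74 to 0.08, adjusted p = 0.417).

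MLOC_70078 had AtCKX1 estimates of nearly the same size at both ages. At 1DAG the AtCKX1 libraries had 4.46, 3.00 and 3.98 CPM and the WT libraries 5.12, 7.01 and 7.25 CPM, without overlap. The log2 fold change was -0.76 at 1DAG (95% interval -1.50 to -0.02, adjusted p = 0.274) and -0.73 at 10DAG (95% interval -1.45 to -0.02, adjusted p = 0.354), where AtCKX1 replicate 3 lay above 2 of the WT libraries. Neither passed the adjusted test by edgeR, and the 10DAG value was -0.36 without WT 10DAG replicate 2 and -1.16 without AtCKX1 10DAG replicate 3.

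For the other members the intervals between genotypes included no change and, on at least 1 side, a 2-fold change, except that of MLOC_5973 at 10DAG. For this ACC synthase gene the log2 fold change was 0.50 at 1DAG (95% interval -0.36 to 1.36) and -0.09 at 10DAG (95% interval -0.92 to 0.74). MLOC_43526 was at 0.12 at 1DAG (95% interval -0.99 to 1.23) and at 0.39 at 10DAG (95% interval -0.71 to 1.48), where it was 1.08 without WT 10DAG replicate 2 and 0.093 without WT 10DAG replicate 3. MLOC_50024 had the widest intervals, -1.38 at 1DAG (95% interval -3.06 to 0.31) and -0.50 at 10DAG (95% interval -2.08 to 1.07). Its 1DAG value was -0.53 without WT 1DAG replicate 1 and -2.23 without AtCKX1 1DAG replicate 1, and its 10DAG value was 0.42 without WT 10DAG replicate 2. Differences of over 2-fold therefore lay within the intervals of MLOC_43526 and MLOC_50024 at both ages and of MLOC_5973 at 1DAG.

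The difference of the age effects between the genotypes was tested as an interaction. No member was called by edgeR or DESeq2, and 0 had an unadjusted p of at most 0.05, while 0.485% of all tested genes were called and 7.17% had such a p. The age effect of AtCKX1 minus that of WT was -0.58 on the log2 scale for MLOC_5973 (95% interval -1.78 to 0.61, adjusted p = 0.85) and 0.03 for MLOC_70078 (95% interval -0.99 to 1.04, adjusted p = 0.993). It was 0.27 for MLOC_43526 (95% interval -1.29 to 1.83, adjusted p = 0.939). For MLOC_67637 it was 0.68 (95% interval -0.63 to 2.00, adjusted p = 0.85), and -0.082 without WT 1DAG replicate 1. MLOC_50024 had a difference of 0.87 (95% interval -1.42 to 3.16, adjusted p = 0.874), which was 0.036 without WT 1DAG replicate 1 and 1.78 without WT 10DAG replicate 2. A larger or smaller rise in AtCKX1 was thus not detected for any member, and the intervals are too wide to show that the rises were equal.

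The spread between replicates was wider for the 5 members than for most genes of like level. As the SD of log2 CPM within groups, pooled over the 4 groups, it was 1.05 for MLOC_50024, above 98.5% of the 1848 genes whose mean level lay within 0.5 on the log2 scale. MLOC_43526 had an SD of 0.74, above 99.2% of 3248 such genes, whose median SD was 0.19. The other SDs were 0.45 for MLOC_70078, 0.56 for MLOC_5973 and 0.56 for MLOC_67637, at the 86.7, 85.1 and 79.3 percentile of their genes of like level.

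These deviations were shared between members within single libraries. WT 10DAG replicate 2 had the highest level of its group in 5 of 5 members, with deviations from the group mean of 0.30 to 1.30 (log2). AtCKX1 1DAG replicate 2 had the lowest level of its group in 5 of 5, with deviations of -1.01 to -0.21, and AtCKX1 10DAG replicate 2 the lowest in 4 of 5. AtCKX1 10DAG replicate 3 and AtCKX1 1DAG replicate 1 were each highest in 4 of 5. In WT 1DAG replicate 1 only MLOC_50024 and MLOC_67637 stood high, by 1.19 and 1.12. The median deviation over all 20212 tested genes lay between -0.05 and 0.02 in every library. Over the 12 ethylene signalling and response genes described further on, the median ranged from -0.27 (WT 1DAG replicate 2) to 0.18 (AtCKX1 1DAG replicate 1). For these 12 genes it was 0.06 in WT 10DAG replicate 2 and -0.20 in AtCKX1 1DAG replicate 2. Read totals moved with part of this pattern. WT 10DAG replicate 2 (36100002 reads in genes) and AtCKX1 10DAG replicate 3 (38072347) were the shallowest of their groups, and AtCKX1 1DAG replicate 2 (47683587) and AtCKX1 10DAG replicate 2 (48117821) the deepest. WT 1DAG replicate 1 (49131251) went the other way for MLOC_50024 and MLOC_67637, as the deepest of its group. AtCKX1 1DAG replicate 1 (42595338), highest in 4 of 5, was not the shallowest of its group. The part of depth in these deviations was not tested.

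**Figure D3:**
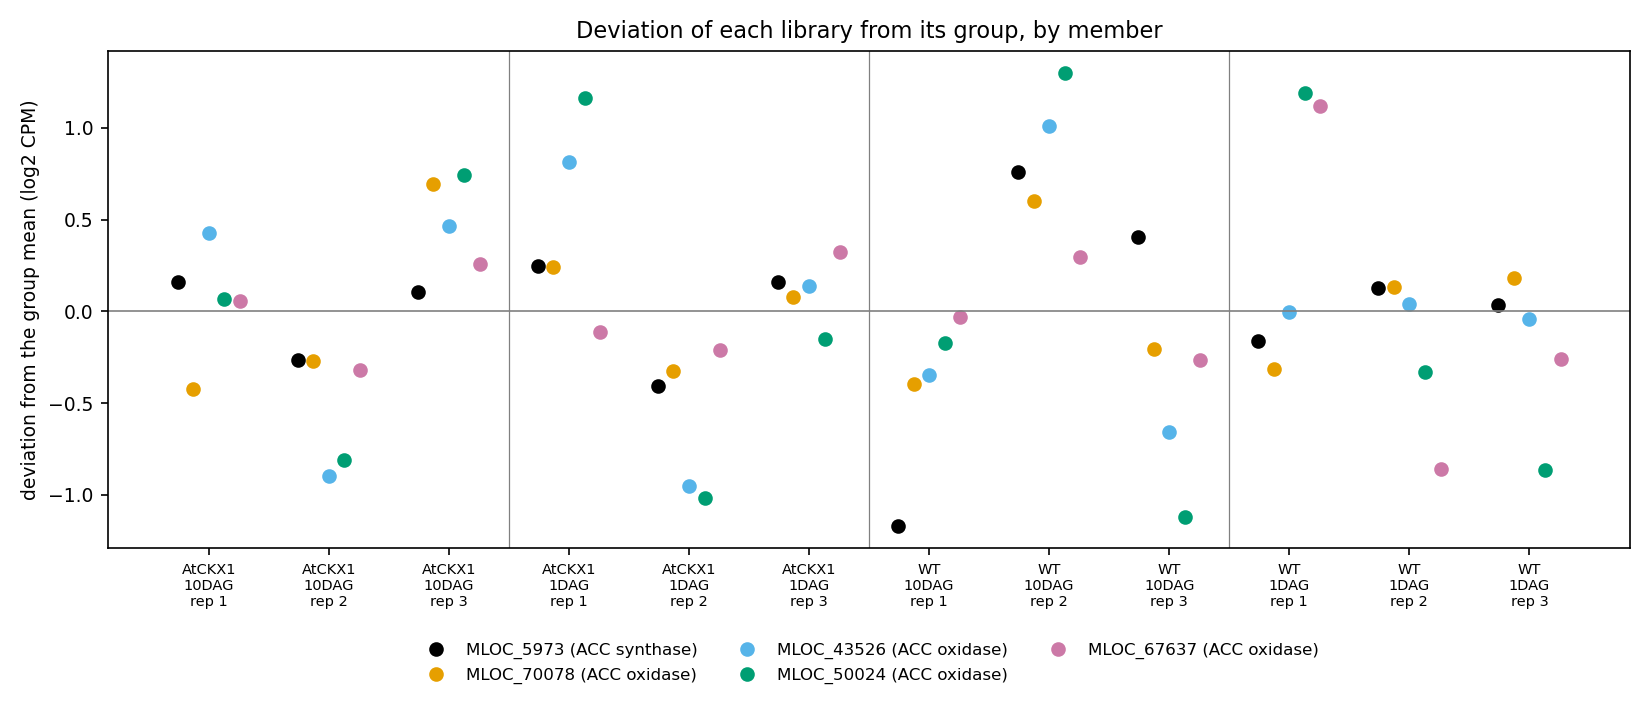
Deviation of each library from the mean of its own group in log2 CPM (vertical axis) for the 5 genes (colours), with the 12 libraries on the horizontal axis in the order AtCKX1 10DAG, AtCKX1 1DAG, WT 10DAG and WT 1DAG. In WT 10DAG replicate 2 the 5 points lie above 0, and in AtCKX1 1DAG replicate 2 the 5 points lie below 0.

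Among pairs of members, MLOC_43526 and MLOC_50024 deviated most alike. The Pearson correlation of their deviations from the group means was 0.82 over the 12 libraries, which is a description of points that share libraries and depth. It was 0.67 for MLOC_43526 and MLOC_70078, 0.63 for MLOC_50024 and MLOC_67637, 0.59 for MLOC_5973 and MLOC_70078, and 0.57 for MLOC_5973 and MLOC_43526. For MLOC_67637 it was 0.03 with MLOC_5973 and 0.02 with MLOC_70078.

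The genes most like each member were sought by the Pearson correlation of log2 CPM over the 12 libraries, among genes the study described and called higher at 10DAG, so a shared age difference is built into every value. The closest to MLOC_5973 were MLOC_6100, for a CBL-interacting protein kinase (0.963), MLOC_12009, for a borate transporter (0.963), and MLOC_22013, for a bZIP transcription factor (0.962). For MLOC_70078 they were MLOC_22823, for a tau class glutathione S-transferase (0.987), MLOC_61695, for an ammonium transporter (0.983), and MLOC_70487, for a xylan acetyltransferase of the TRICHOME BIREFRINGENCE-LIKE family (0.982). The glutathione S-transferase gene was also the closest of all 20211 other tested genes to MLOC_70078.

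Other genes were closest to MLOC_43526 and MLOC_50024, again with transcription factor or protein kinase genes among them, as for MLOC_5973. Whether the kinds of gene differ between members was not tested. The closest to MLOC_43526 were MLOC_12079, for a WRKY transcription factor (0.944), MLOC_60622, for a VQ cofactor of WRKY factors (0.938), and MLOC_16273, annotated as a CCR4-NOT subunit of the CAF1 ribonuclease type (0.931). MLOC_50024 was closest to 3 protein kinase genes, MLOC_74338 with a LysM domain (0.978), MLOC_81165 (0.972) and MLOC_45136 with a lectin domain (0.971). For MLOC_67637 the closest were MLOC_60455, for a bHLH transcription factor (0.988), MLOC_17209, for an F-box protein (0.985), and MLOC_17126, for an oxygenase of the iron-dependent class listed as mugineic acid dioxygenase (0.982). No described gene was named for more than 1 member. Without regard to description, the closest gene was MLOC_59724 for MLOC_5973 (0.973), MLOC_73203 for MLOC_43526 (0.950), MLOC_1475 for MLOC_50024 (0.988) and MLOC_22702 for MLOC_67637 (0.990), and no function is paired with these 4 identifiers here.

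Downstream of synthesis, 12 further ethylene genes were read from the part of the study's list of genes called higher that could be used, 4 of perception and signalling and 8 of ethylene-responsive factors. The study chose these genes on the WT libraries, so in WT their direction is not independent evidence. In AtCKX1, 10 of the 12 were called higher at 10DAG and 0 lower, where 15.8% and 12.2% of all tested genes were. Genes chosen for a rise in WT can be higher in AtCKX1 whatever their function. The shares over all genes are thus no matched reference, and nothing about the pathway is read from the count. The median log2 fold change was 1.75 against 1.97 for the 5 synthesis genes. Among the 10, MLOC_75776 had 0, 0 and 1 reads in AtCKX1 at 1DAG against 7, 8 and 17 at 10DAG. In the fit of 12 libraries, MLOC_75776 and MLOC_63834 passed the read filter only through 10DAG libraries, which favoured a rise beforehand. In WT 11 of the 12 could be tested and all 11 were called higher, with a median of 1.64. Over all genes tested there, 14.4% were called higher and 11.7% lower. MLOC_63834 passed the read filter of that fit only through 10DAG libraries too. The study's choice of genes all but fixed this WT count, so nothing is read from it. MLOC_64196, the ethylene receptor gene, was at 61.2, 45.8 and 60.3 CPM in AtCKX1 at 10DAG, against 20.4, 13.5 and 20.2 CPM in AtCKX1 at 1DAG, and rose by 1.63 ± 0.18 in log2 units (SE, adjusted p = 3.35e-05). MLOC_10385, for an ARGOS protein that dampens the ethylene signal, rose by 2.05 (adjusted p = 3.18e-05) and the responsive factor gene MLOC_10878 by 4.33 (adjusted p = 5.15e-06).

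The pair that was not called in AtCKX1 consisted of MLOC_28234 and MLOC_63834. MLOC_28234 encodes an EBF protein, the F-box part of the complex that marks the ethylene transcription factor EIN3 for degradation, and was at 0.35 ± 0.18 in log2 units (SE, adjusted p = 0.113). MLOC_63834, a responsive factor gene with few reads, was at 1.02 ± 0.54 (SE, adjusted p = 0.13). As for the synthesis genes, no gene of the 12 was called by edgeR between genotypes at either age or in the interaction, where 5 (1DAG), 0 (10DAG) and 4 (interaction) had an unadjusted p of at most 0.05. Over all tested genes the shares with such a p were 17.9% at 1DAG, 13.7% at 10DAG and 7.17% in the interaction.

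**Figure D4:**
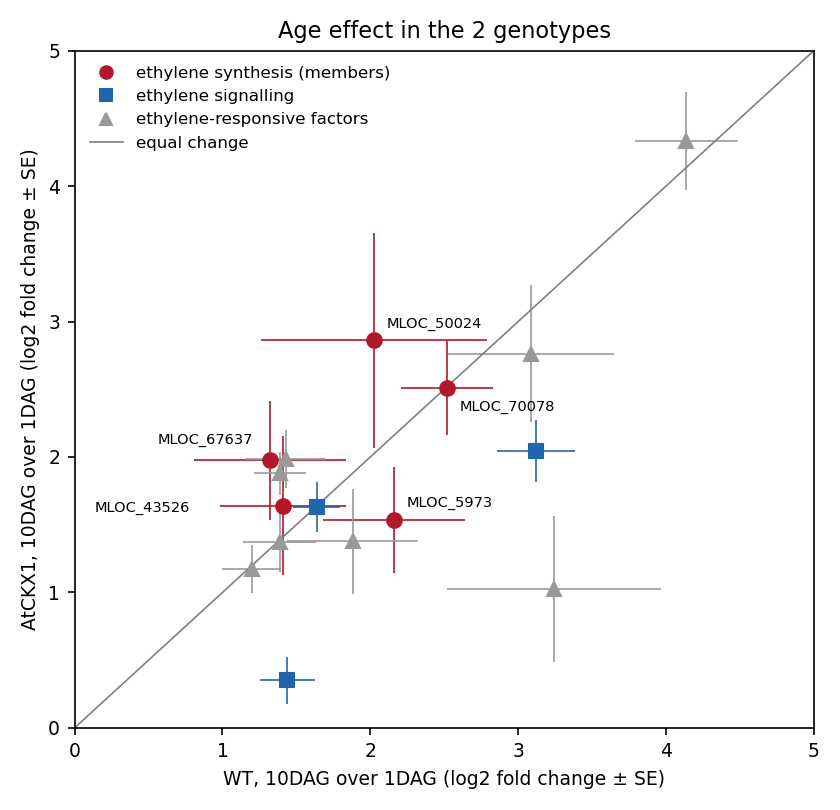
Age effect (10DAG over 1DAG, log2 fold change ± SE) in AtCKX1 (vertical axis) against WT (horizontal axis) for the 5 synthesis genes (red circles), 3 signalling genes (blue squares) and 8 ethylene-responsive factor genes (grey triangles). The signalling gene MLOC_75776 had too few reads to be tested in WT and is not drawn, and the grey line marks equal change. All points have positive values on both axes, and the square lowest on the vertical axis is MLOC_28234, at 0.35 in AtCKX1 and 1.44 in WT.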

How the data were processed

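The deposited files hold raw read counts per gene for each of the 12 libraries. By the labels and the methods, the authors mapped trimmed reads to the cv. Morex genome (IBSC_v1) using TopHat, counted them per gene by strand with HTSeq 0.6.0 and compared the wild-type ages with DESeq2. Reads outside genes made up 22.1% to 24.4% of a library and reads aligning to more than 1 place 7.02% to 10.3%. Both were left out of library sizes, so reads shared by near-identical oxidase genes would be missing from these counts. Of the 26073 identifiers, 0 were found in the RefSeq barley gene table, hence positions and sequences are not given.

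The tests ran in edgeR 4.0.16 (R 4.3.3), using its default filter (filterByExpr), TMM factors and the robust quasi-likelihood test, with p-values adjusted over all genes tested (Benjamini-Hochberg). The WT ages were compared in the 6 WT libraries. The other contrasts came from a joint fit of the 12 libraries, where the 4 groups share 1 estimate of the spread. Standard errors were back-calculated from the estimate and its F statistic, so that they and the 95% intervals are approximate. CPM are scaled over all 12 libraries, and a prior count of 2 was added on the log scale only. With 3 libraries a group an exact permutation test cannot give a two-sided p below 0.1 and was not used. The members and lists were chosen with earlier results of these data known. Named genes are the 5 members, 12 other ethylene genes described in the study's list, and for each member the 3 most correlated described genes and the 1 most correlated of all. That list was read in part, 1342 genes, and its own fold changes were not used. The method was tested on simulated data. Alternatives were DESeq2 1.42.0, other scaling factors, filters, dispersion and fold limits, each library left out in turn, other sets of libraries, and a block for the replicate number.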

Additional observations from a re-analysis of the deposited data

How the results depend on the processing

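The count of members called higher at 10DAG in the WT was 3, became 5 with DESeq2 or with all 12 libraries in the fit, and 1 with glmTreat against a 2-fold change. In AtCKX1 the count was 5 and became 1 with glmTreat. The count called lower in AtCKX1 than in WT at 1DAG was 0 and became 1 with DESeq2. These counts of called members, and those of the other comparisons, stayed within 1.5 times under the other scaling factors, filters and dispersion settings. Leaving out each library in turn gave 2 to 4 members called higher in the WT and 4 to 5 in AtCKX1. The shares of all genes called under these alternatives were not taken. Without WT 1DAG replicate 1 and 10DAG replicate 2 together, MLOC_43526 was at 0.70 in the WT age comparison, below the fold limit.

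Of 540 values of single members under an alternative, 499 kept direction and call, 15 lost the call, 9 gained it and 17 changed sign, all of the last kind in contrasts that were not called. Without the same pair of WT libraries, MLOC_5973 was at 0.30 and MLOC_50024 at 0.42 between genotypes at 10DAG, and the differences of age effects were 0.55 for MLOC_70078 and 0.97 for MLOC_43526. With each library left out in turn the values between genotypes ranged from -0.48 to 0.31 for MLOC_5973 and from -0.94 to 0.42 for MLOC_50024 at 10DAG, and from -0.37 to 0.47 for MLOC_43526 at 1DAG. The differences of age effects ranged from -0.41 to 0.39 for MLOC_70078, from -0.081 to 0.95 for MLOC_43526, from -0.082 to 1.03 for MLOC_67637, from 0.036 to 1.78 for MLOC_50024 and from -0.98 to -0.20 for MLOC_5973. The cause of these changes was not tested.

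The replicate numbers did not pair the libraries, since only 2 of 18 same-numbered pairs had deviations correlated above 0.1. With the replicate number as a block no call of a member changed, 3 members were called higher in the WT and 5 in AtCKX1, and the difference of age effects of MLOC_70078 was -0.041. The members had at least 25 reads in every library.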

Other observations

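Of the 12 ethylene signalling and response genes, 4 had an unadjusted p of at most 0.05 both between the genotypes at 1DAG and in the difference of age effects. None of the 4 passed the adjusted test by edgeR. Over all tested genes 17.9% and 7.17% had such a p in each contrast alone, and the share with both was not counted. The 1DAG difference is a part of the difference of age effects, so meeting both is partly built in. MLOC_28234, the EBF gene, was at 94.7 ± 18.6 CPM in AtCKX1 at 1DAG and 55.7 ± 12.6 CPM in WT at 1DAG (SD, n = 3 each), and at 121 ± 6.35 CPM in AtCKX1 at 10DAG and 147 ± 9.68 CPM in WT at 10DAG. All 3 AtCKX1 libraries lay above all 3 WT libraries at 1DAG and below them at 10DAG. Of the 20212 tested genes, 4326 did not overlap between genotypes at 1DAG and 4782 at 10DAG, in either direction. The share separated at both ages was not counted. The age effect of MLOC_28234 in AtCKX1 minus that in WT was -1.05 ± 0.25 in log2 units (SE, adjusted p = 0.127 by edgeR). MLOC_10385, the ARGOS gene, was at 5.74 ± 1.41 CPM in AtCKX1 and 3.57 ± 1.15 CPM in WT at 1DAG, and at 23.7 ± 1.48 CPM in AtCKX1 and 30.3 ± 1.58 CPM in WT at 10DAG (SD, n = 3 each). It had the same separation of libraries at both ages, and its age effect differed by -1.04 ± 0.32 (SE, adjusted p = 0.33). The responsive factor gene MLOC_63834, with 31 reads or fewer in each library, had a log2 fold change of 1.63 at 1DAG (adjusted p = 0.235) and a difference of age effects of -2.19 (adjusted p = 0.517). The responsive factor gene MLOC_81350 had the opposite signs, at -0.48 at 1DAG (adjusted p = 0.187) and 0.52 in the difference of age effects (adjusted p = 0.65). These genes were chosen for mention after their values were seen.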
